A study of Mus musculus with 9 samples.

Results

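Interferon-stimulated genes are the genes that cells switch on when interferon binds its receptors. The 40 genes described here were picked by symbol from a list of such genes, by a rule that used none of their values but with earlier results of these data known, and all 40 are rows of the deposited table of 24421 genes. They comprise 4 transcription factors, 3 RNA sensors, 18 antiviral effectors, 5 regulators and other induced genes, and 10 interferon-inducible GTPases. All 40 had enough reads to pass the low-count filter that left 13901 genes for testing.

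RNA was sequenced from tumors formed by bEnd.3, mouse endothelial cells carrying the polyoma middle T oncogene, placed in the flank of male Nu/Nu nude mice. Nude mice have no thymus and so lack most T cells, while their macrophages and natural killer (NK) cells remain. The 5 treated tumors came from mice given R-propranolol into the peritoneum at 6 mg/kg per day, 5 times a week from the second day after the cells, and the 4 vehicle tumors from mice given ethanol in buffered saline on the same schedule. R-propranolol is the mirror-image form of the drug with little beta-blocking activity, and the comparison asks which transcripts differ in the tumor when it is given. No age is given for the animals.

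Type I interferons (alpha, beta and relatives) signal through the receptor pair Ifnar1 and Ifnar2 to a complex that includes Stat2 and Irf9 and binds the interferon-stimulated response element in DNA. Interferon gamma, made mainly by NK cells and T cells, signals through Ifngr1 and Ifngr2 to the gamma-activated site and induces Irf1 and the GTPases most strongly. Both arms start from Janus kinases, and many of the induced genes answer to either.

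The DNA letters of these elements are shown first, since they link the members to the pathway without using any expression value. Promoters, from 250 before to 50 after each start site, were present in the RefSeq promoter table (GRCm38.p6) for 30 of the 40 members. The response element core, GAAA followed after any 2 bases by GAAA, was sought on both strands and found in 18 of the 30 (60.0%), against 3.99% of 27025 genes in the same table. The gamma-activated site TTCNNNGAA, which can overlap it, was found in 11 of the 30 (36.7%), against 9.55% of all genes. All 7 GTPases with a promoter in the table held the response element, as did 8 of 14 antiviral effectors, both RNA sensors, 1 of 4 transcription factors and 0 of 3 regulators. A match is a run of letters and does not show that a factor binds there.

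The stretches printed below run 5′ to 3′ on the gene's own strand, and capitals mark the matched motifs. Ifit1 and Isg15 stand for the antiviral effectors, with several response elements close together, and the Isg15 run holds 3 that overlap. Bst2 is the one member with an unadjusted p under 0.05 between the groups. Irf1 holds a gamma-activated site and no response element. Gbp2, Igtp and Irgm2 stand for the GTPases.

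Ifit1, chr19:34640765-34640833, plus strand: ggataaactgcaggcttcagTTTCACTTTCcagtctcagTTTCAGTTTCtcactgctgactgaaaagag

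Isg15, chr4:156200855-156200916, minus strand: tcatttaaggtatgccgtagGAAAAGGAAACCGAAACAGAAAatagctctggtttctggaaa

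Bst2, chr8:71537567-71537628, minus strand: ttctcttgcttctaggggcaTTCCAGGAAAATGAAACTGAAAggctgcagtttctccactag

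Irf1, chr11:53769904-53769952, plus strand: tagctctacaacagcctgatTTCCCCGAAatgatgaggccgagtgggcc

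Gbp2, chr3:142620584-142620633, plus strand: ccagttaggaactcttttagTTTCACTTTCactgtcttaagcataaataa

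Igtp, chr11:58199491-58199551, plus strand: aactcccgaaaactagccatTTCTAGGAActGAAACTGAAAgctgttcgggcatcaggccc

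Irgm2, chr11:58214882-58214942, plus strand: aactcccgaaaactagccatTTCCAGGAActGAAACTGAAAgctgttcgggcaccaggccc

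The Igtp and Irgm2 stretches were identical at 59 of 61 bases, and in each a gamma-activated site lies just before a response element. These 2 genes overlap on the same strand in the annotation, with 162 exon bases in common. In Bst2 the gamma-activated site overlaps the first of 2 response elements, and the stretch runs from −156 to −95 relative to the RefSeq start site. The gene itself lies on the minus strand at chr8:71534255-71537456 (mm10), with 903 exon bases.

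Reads assigned to genes numbered 20599904 to 24949010 per vehicle tumor and 21084749 to 27852630 per R-propranolol tumor. Levels are given as CPM, a gene's reads per 1000000 reads of a library whose size was adjusted by TMM. The member counts ran from 23 to 3549 in a single tumor, so every member was read in every tumor. R-propranolol replicate 5 stood apart from the other 8 tumors, with correlations of 0.678 to 0.791 with them over all genes tested, and its 12 skeletal muscle markers summed to 164121 CPM, against at most 389 elsewhere. Values with and without this tumor are therefore given below. The titles of vehicle replicate 1 and vehicle replicate 2 repeat a number that differs between all other titles, while each title ends in a running number of its own, and no label says whether both came from the same animal. The p-values measure the spread between these tumors.

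No difference between the groups passed the test for any of the 40 members. By edgeR's quasi-likelihood test 0 of 40 had an adjusted p under 0.05, where 0% of the 13901 genes tested did, and the smallest adjusted p was 0.876. At an unadjusted p under 0.05 the test called 1 member lower (Bst2) and 0 higher, where 0.288% of all genes were called lower, 2.01% higher and 2.3% in either direction. The groups overlapped in CPM for all 40 members, where 1.26% of all genes had groups that did not (0.633% higher and 0.626% lower with R-propranolol). The log2 fold change of R-propranolol over vehicle was below 0 for 26 members and above 0 for 14, with a median of −0.04, beside 45.7% of all genes below 0 and a median of 0.03. The single values ran from −0.48 for Ifi44 to 0.73 for Ifih1.

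The intervals say how much could have been missed. The 95% interval of the log2 fold change held 0 for 39 of the 40 members. It lay wholly between −1 and 1, that is within a change of 2-fold either way, for 15 members. It still held a doubling for 16 members and a halving for 20.

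**Figure D1:**
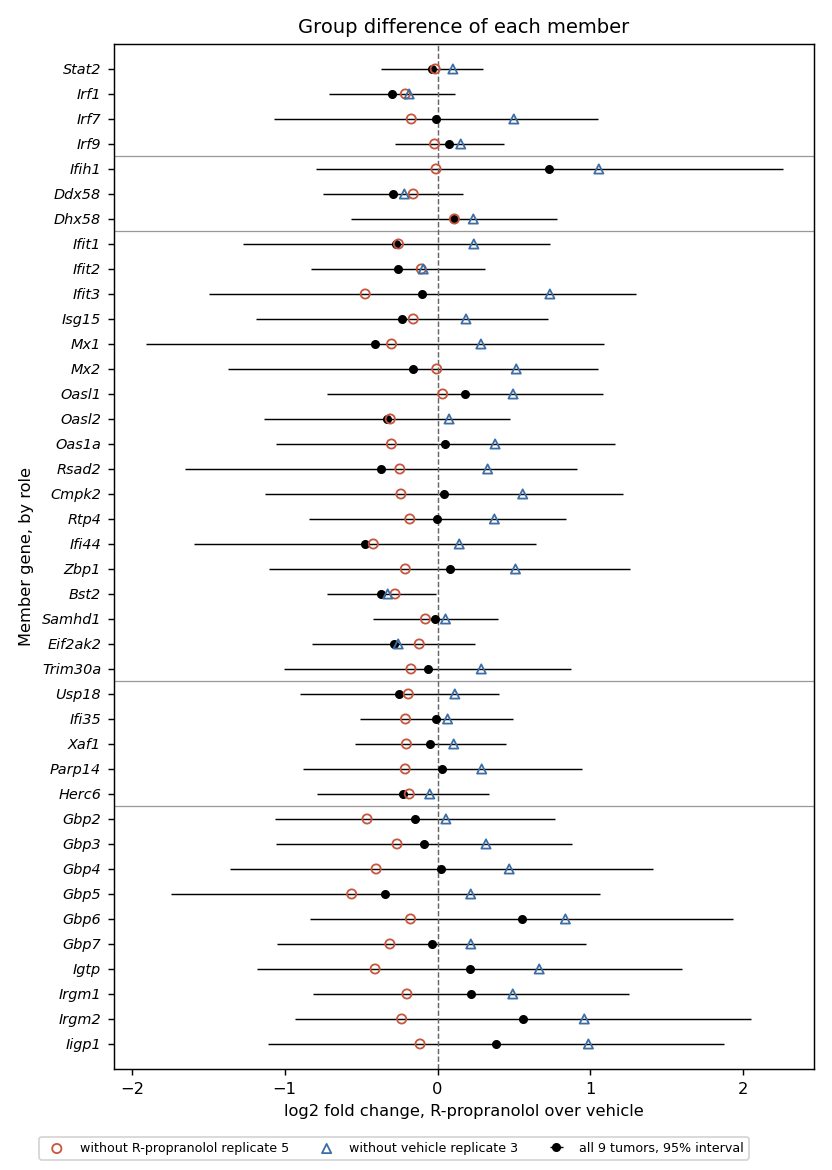
Log2 fold change of R-propranolol over vehicle (x axis) for the 40 members (y axis, grouped by role): filled points with bars are the estimates and 95% intervals from all 9 tumors, open circles the estimates without R-propranolol replicate 5 and triangles those without vehicle replicate 3. All bars but that of Bst2 cross 0, and the triangles lie to the right of the circles except for Ddx58, Bst2 and Eif2ak2, with 6 members below 0 without vehicle replicate 3 and 38 without R-propranolol replicate 5.

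By their medians, the transcription factors varied least of the roles between tumors and differed little between the groups. Their median log2 fold change was −0.02, or 0.13 without vehicle replicate 3 and −0.10 without R-propranolol replicate 5. Their median within-group SD of log2 CPM was 0.25, below that of all 40 members (0.71) and of all genes (0.40), though Irf7 had 0.78. Stat2, a partner of Irf9 in the type I complex, was read at 46.9, 49.4, 65.2 and 43.2 CPM in vehicle replicates 1 to 4 and at 60.3, 50.2, 44.4, 47.9 and 46.8 CPM in R-propranolol replicates 1 to 5. The 9 values of Stat2 spanned 1.51-fold, the narrowest range of any member, and the log2 fold change was −0.04 with an SE of 0.15. Irf9, the DNA-binding partner in that complex, was at 23.5, 25.7, 29.2 and 22.7 CPM in the vehicle tumors and 24.7, 29.8, 21.7, 23.8 and 33.4 CPM in the treated tumors. Its groups overlapped throughout, with a log2 fold change of 0.08 (SE 0.16), or −0.02 without R-propranolol replicate 5.

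Irf1, the factor that interferon gamma induces directly and the most abundant of the 4 per kilobase of exon (17.8 CPM per kb), was at 74.5, 74.5, 97.4 and 69.7 CPM in the vehicle tumors. In the R-propranolol tumors Irf1 was at 87.7, 58.8, 59.7, 67.2 and 47.4 CPM. All treated tumors but replicate 1 were below every vehicle tumor. The log2 fold change was −0.30 (SE 0.18, 95% interval −0.71 to 0.11), which did not pass (adjusted p = 0.876 by edgeR's quasi-likelihood test, exact permutation p = 0.135). Leaving out R-propranolol replicate 1, the only treated tumor above any vehicle tumor, necessarily left the Irf1 groups without overlap. In that fit the log2 fold change was −0.44 and the unadjusted edgeR p was under 0.05, while no gene passed adjustment. At that unadjusted threshold 63 of 13778 genes were lower and 502 higher in the same fit. The log2 fold change of Irf1 shrank to −0.21 without R-propranolol replicate 5 and to −0.19 without vehicle replicate 3. Irf7, which amplifies type I interferon production, ranged 5.25-fold between tumors, from 5.17 CPM in R-propranolol replicate 3 to 27.2 CPM in vehicle replicate 3, and its log2 fold change was −0.01 (SE 0.47).

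The RNA sensors recognise viral RNA in the cytoplasm, and the 3 members had log2 fold changes of both signs. Ddx58 (RIG-I), the most abundant per kilobase (7.30 CPM per kb), was at 50.01, 59.1, 66.0 and 54.0 CPM in the vehicle tumors and at 60.8, 45.1, 46.3, 53.2 and 28.7 CPM in the treated tumors. Its low value was in R-propranolol replicate 5, and the log2 fold change was −0.29 (SE 0.20), or −0.16 without that tumor. Ifih1 (MDA5), the sensor of long double-stranded RNA, was at 6.24, 5.93, 10.5 and 3.32 CPM in the vehicle tumors and at 7.06, 11.0, 2.19, 5.62 and 28.1 CPM in the treated tumors. One tumor carried that difference: the log2 fold change of Ifih1 was 0.73 (SE 0.67, 95% interval −0.80 to 2.26), the highest of the 40, and −0.01 without R-propranolol replicate 5. Dhx58 (LGP2), which tunes the other two, was at 7.36, 10.1, 11.0 and 6.55 CPM in the vehicle tumors and at 9.95, 14.7, 5.50, 7.71 and 9.24 CPM in the treated tumors. Its groups overlapped fully, with a log2 fold change of 0.11 (SE 0.30). An antisense gene shares 141 exon bases with Dhx58, and no source used here says whether counting used the strand.

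The antiviral effectors block virus entry, translation, replication or release, and 14 of the 18 had a log2 fold change below 0, with a median of −0.20. Without vehicle replicate 3 only Ifit2, Bst2 and Eif2ak2 of the 18 were below 0, and the median was 0.29. Without R-propranolol replicate 5, 17 of the 18 were below 0, and the median was −0.23. Bst2 (tetherin), which holds budding virus particles at the cell surface, had the highest level per length of all 40 members at 67.9 CPM per kb. It was read at 65.4, 77.4, 76.3 and 61.2 CPM in vehicle replicates 1 to 4 and at 67.2, 51.6, 61.3, 51.3 and 40.1 CPM in R-propranolol replicates 1 to 5. Means were 70.1 ± 8.02 CPM (SD, n = 4) and 54.3 ± 10.4 CPM (SD, n = 5). Replicates 1 and 3 of the treated group lay above the lowest vehicle tumor, and the other treated tumors lay below all 4. The log2 fold change was −0.37 (SE 0.16, 95% interval −0.72 to −0.01) with an unadjusted p of 0.0446 and an adjusted p of 0.876 by edgeR's quasi-likelihood test. The exact two-sided permutation test over all splits of the tumors gave p = 0.0714, where 0.00794 is the smallest it can give. Under 17 other settings (another scaling, filter or test, a replicate term, vehicle replicates 1 and 2 summed, or 1 tumor left out) Bst2 stayed below 0, from −0.22 to −0.48, and in 9 of them its unadjusted p was no longer under 0.05.

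Eif2ak2 (PKR), the kinase that stops translation on double-stranded RNA, was at 84.5, 83.0, 93.1 and 89.2 CPM in the vehicle tumors and at 83.8, 70.0, 77.1, 91.3 and 35.8 CPM in the treated tumors. The value in R-propranolol replicate 5 was below every other value, and the other 4 treated tumors lay within the vehicle range or below it. Its log2 fold change was −0.29 (SE 0.24) with that tumor and −0.12 without it. Ifit2, a tetratricopeptide protein that limits viral translation, was at 27.6, 23.9, 37.6 and 24.3 CPM in the vehicle tumors and at 27.4, 26.3, 21.95, 29.9 and 13.0 CPM in the treated tumors. Again the lowest tumor was R-propranolol replicate 5, and the log2 fold change was −0.26 (SE 0.25), or −0.11 without it.

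Other effectors swung far more between tumors of 1 group than between groups. Rsad2 (viperin), chosen as an example after its values were seen, was at 13.3, 11.0, 34.7 and 5.46 CPM in the vehicle tumors and at 18.6, 15.4, 4.71, 15.7 and 7.91 CPM in the treated tumors. Both the highest and the second lowest of the 9 tumors were vehicle tumors. The log2 fold change was −0.37 (SE 0.57, 95% interval −1.65 to 0.91), or 0.33 without vehicle replicate 3 and −0.25 without R-propranolol replicate 5. Isg15, the ubiquitin-like protein, and Ifit1, also picked after their values were seen, had log2 fold changes of −0.23 (SE 0.42) and −0.27 (SE 0.44). These turned to 0.19 and 0.24 without vehicle replicate 3, and were −0.16 and −0.26 without R-propranolol replicate 5. Mx1, the dynamin-like restriction factor, spanned 9.56-fold, from 1.19 CPM in vehicle replicate 4 to 11.3 CPM in vehicle replicate 3. At the other end, Samhd1, which depletes nucleotides, had the narrowest range of the effectors, 1.69-fold. Its mean of 123 CPM was the highest of the members, but per kilobase (13.4 CPM per kb) it lay below Bst2 (67.9 CPM per kb).

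**Figure D2:**
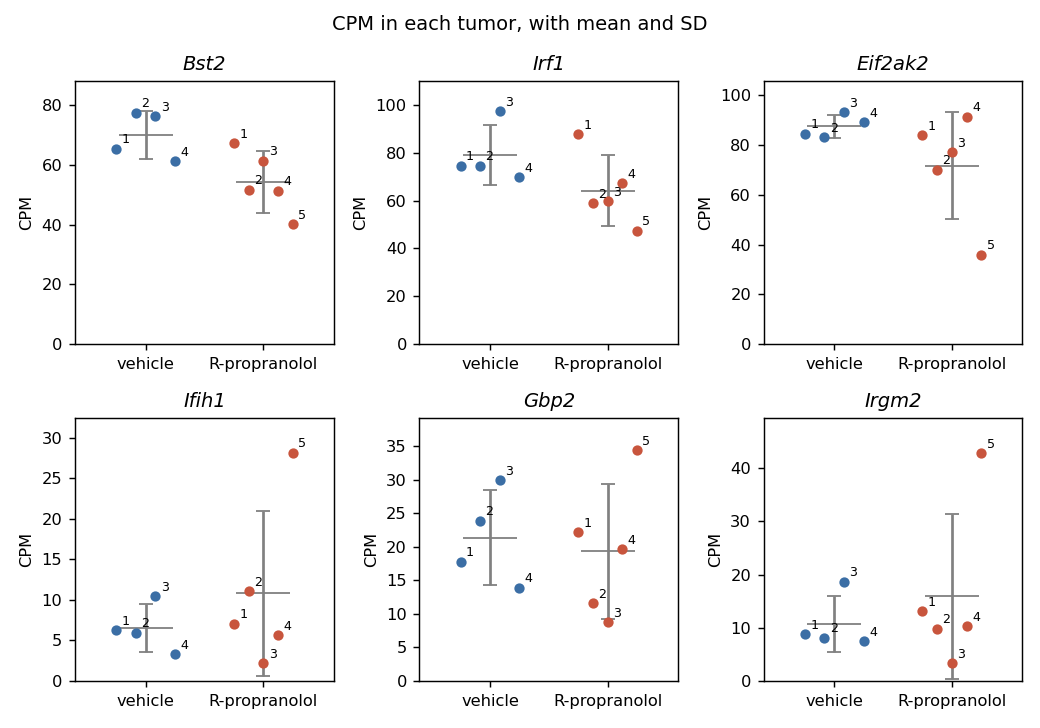
CPM of 6 members in each tumor, linear axes from 0, with replicate numbers beside the points and the mean and SD of each group in grey (4 vehicle tumors, 5 R-propranolol tumors). The groups overlap in every panel. R-propranolol replicate 5 is the lowest point for Bst2 (40.1), Irf1 (47.4) and Eif2ak2 (35.8) and the highest for Ifih1 (28.1), Gbp2 (34.4) and Irgm2 (42.9).

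The regulators and other induced genes had a median log2 fold change of −0.05, or 0.11 without vehicle replicate 3 and −0.20 without R-propranolol replicate 5. Ifi35, the most abundant of the 5 per kilobase (11.8 CPM per kb), was at 18.8, 19.7, 23.7 and 19.9 CPM in the vehicle tumors and at 21.9, 15.7, 15.8, 17.5 and 31.1 CPM in the treated tumors, with a log2 fold change of −0.01 (SE 0.22). Usp18, the protease that removes Isg15 from proteins and damps type I signaling, was at 5.29, 6.32, 13.3 and 6.93 CPM and at 7.80, 7.32, 5.86, 6.97 and 5.52 CPM, with a log2 fold change of −0.25 (SE 0.29). Vehicle replicate 3 alone lay above the rest for Usp18, and leaving it out gave 0.11. Xaf1, a partner of the apoptosis inhibitor Xiap, was at 19.1, 23.8, 32.5 and 24.0 CPM and at 25.6, 19.0, 20.01, 21.7 and 33.9 CPM, with a log2 fold change of −0.05 (SE 0.22). Herc6, the ligase that attaches Isg15 in the mouse, was at 10.1, 10.5, 15.9 and 10.8 CPM and at 14.8, 9.09, 6.97, 10.7 and 8.91 CPM, with a log2 fold change of −0.23 (SE 0.25). None of these groups separated. Without R-propranolol replicate 5 the log2 fold changes were −0.21 for Ifi35, −0.19 for Usp18, −0.20 for Xaf1 and −0.18 for Herc6. The annotation gives Herc6 1269 exon bases in common with another gene on its strand, and Ifi35 has 290 bases opposite one on the other strand.

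The interferon-inducible GTPases, which attack the membranes around intracellular microbes, had the widest spread of the 5 roles. The median within-group SD of log2 CPM over the 10 was 0.99, and 6 were above 0 and 4 below, with a median log2 fold change of 0.12. All 10 were above 0 without vehicle replicate 3 (median 0.48), and all 10 below 0 without R-propranolol replicate 5 (median −0.29). Gbp2, the most abundant per kilobase (8.03 CPM per kb), was at 17.8, 23.9, 29.9 and 13.9 CPM in the vehicle tumors and at 22.2, 11.6, 8.77, 19.6 and 34.4 CPM in the treated tumors. Its log2 fold change was −0.15 (SE 0.40), or −0.46 without R-propranolol replicate 5.

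Irgm2, a regulator that keeps other GTPases off the cell's own membranes, was at 8.78, 8.09, 18.7 and 7.50 CPM in the vehicle tumors and at 13.1, 9.81, 3.38, 10.3 and 42.9 CPM in the treated tumors. The treated group held both the lowest and the highest tumor, 12.7-fold apart, and the log2 fold change was 0.56 (SE 0.66, 95% interval −0.93 to 2.05), turning to −0.23 without R-propranolol replicate 5. Iigp1, an effector GTPase of the same family, was at 11.9, 17.4, 39.4 and 8.92 CPM and at 31.7, 11.6, 6.22, 22.2 and 55.1 CPM. Here too the order of the tumors cut across the groups, with a log2 fold change of 0.38 (SE 0.66) that turned to −0.11 without replicate 5. Gbp6 was at 8.35, 11.9, 17.3 and 7.12 CPM and at 15.2, 6.32, 5.53, 12.4 and 42.4 CPM, with a log2 fold change of 0.55 (SE 0.61) over all tumors and −0.18 without replicate 5. Of all 75-base runs in Gbp6 transcripts 67.3% also occur in other genes, chiefly Gm43302 and Gbp10, so its count is uncertain. Gm43302 also overlaps Gbp6 on its strand, with 1726 exon bases in common. Shared runs also make the counts of Oas1a (47.6%, shared with Oas1g) and Ifit3 (41.1%, shared with Ifit3b) uncertain. The reads were longer than these runs, and the share of reads affected was not measured.

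What the members shared was a common order of the tumors rather than a difference between the groups. Their median biological coefficient of variation was 0.485, against 0.325 over all genes tested, and 30 of the 40 were above that value. The highest tumor was a median of 4.79-fold above the lowest for the members, and 2.38-fold for all genes. In vehicle replicate 3 all 40 members were above their own median over the 9 tumors, by a median of 0.84 on the log2 scale. In R-propranolol replicate 3, 39 of the 40 were below it, with a median deviation of −1.14. Vehicle replicate 4 had 33 members below (median −0.42), and R-propranolol replicate 1 had 34 above (median 0.28).

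Counted by extremes, vehicle replicate 3 was the highest of 9 tumors for 21 members (5.62% of all genes), and R-propranolol replicate 3 was the lowest for 30 (10.01% of all genes). Among the 8 tumors without R-propranolol replicate 5, vehicle replicate 3 was the highest for 35 members, beside 9.31% of all genes, and R-propranolol replicate 3 the lowest for 31, beside 13.8%. The 5 members highest elsewhere were Irf9, Ifih1, Dhx58 and Oasl1 in R-propranolol replicate 2, beside 29.0% of all genes, and Bst2 in vehicle replicate 2, beside 5.90%. R-propranolol replicate 2 was also the lowest of the 8 for 5 members, beside 24.0% of all genes. All 10 GTPases were highest in vehicle replicate 3 and lowest in R-propranolol replicate 3 among these 8 tumors. The median log2 CPM of the 40 members was 3.41, 3.44, 4.58 and 2.93 in the vehicle tumors and 3.91, 3.63, 2.51, 3.65 and 4.40 in the treated tumors. The group means of these medians were 3.59 ± 0.70 (SD, n = 4) and 3.62 ± 0.69 (SD, n = 5), so the groups differed by far less than the tumors within each.

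**Figure D3:**
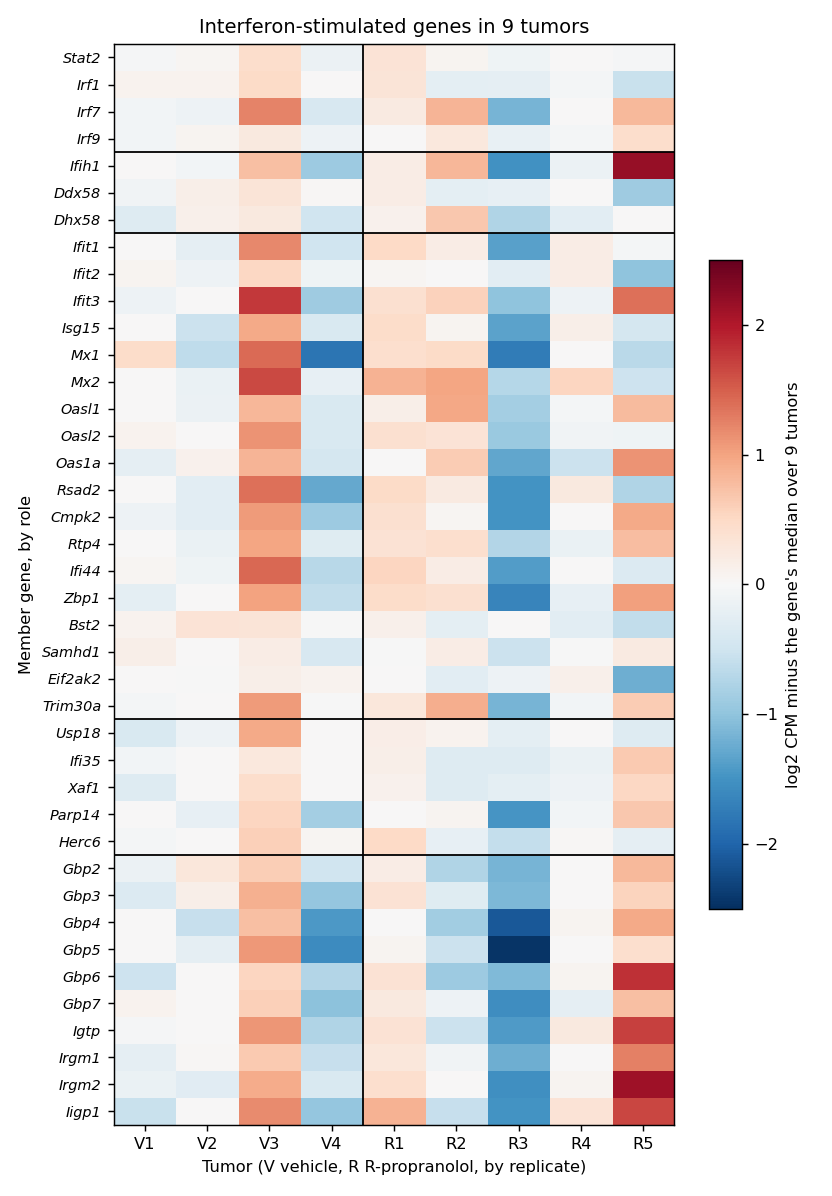
Log2 CPM of each member minus its own median over the 9 tumors (colour, red above and blue below), with tumors in columns (V vehicle, R R-propranolol, by replicate) and members in rows by role. Column V3 is red for all 40 members and column R3 blue for 39. Column R5 is red for every GTPase, from pale (Gbp5, 0.42) to deep (Irgm2, 2.13), and blue for Eif2ak2, Ifit2 and Ddx58 among others.

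R-propranolol replicate 5 departed from this common order. It was above the other 8 tumors for 16 members and below them for 5 (Irf1, Ddx58, Ifit2, Bst2 and Eif2ak2), beside 36.5% and 42.1% of all genes, so its extremes were common across the whole transcriptome. Of the 16, 8 were GTPases, with a median deviation of 1.11 over all 10 GTPases. The antiviral effectors had a median deviation of −0.08 in that tumor, whereas in vehicle replicate 3 effectors (1.03) and GTPases (0.82) were both high and in R-propranolol replicate 3 both low (−1.08 and −1.45).

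The direction of the list changed with the tumors that were included. Without vehicle replicate 3, 6 members were below 0 and the median log2 fold change was 0.26. Without R-propranolol replicate 3, 14 were below 0 with a median of 0.12, and without replicate 4 of that group 18 were, with a median of 0.02. Without R-propranolol replicate 5, 38 were below 0 with a median of −0.21. With library size as the only scaling 34 were below 0 with a median of −0.22, where the median of all genes itself was at −0.10. No member passed adjustment in any setting.

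**Figure D4:**
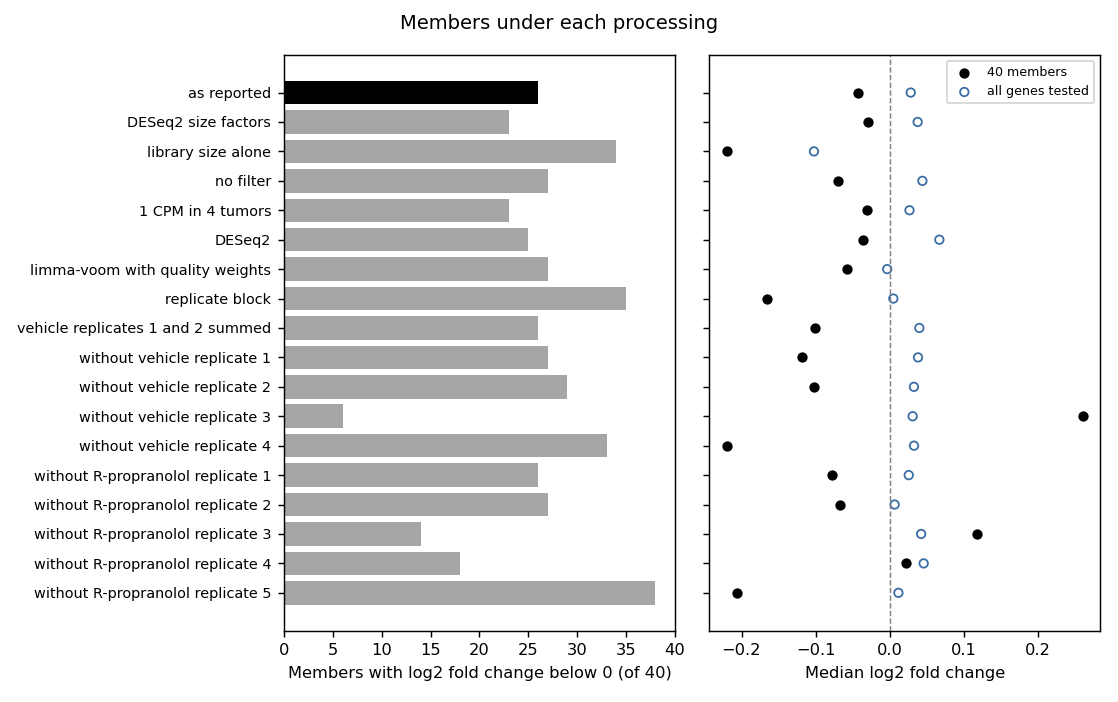
Left, the number of the 40 members with a log2 fold change below 0 (bars from 0 to 40) under each processing or with each tumor left out; right, the median log2 fold change of the members (filled) and of all genes tested (open). The count runs from 6 to 38 while the median of all genes stays between −0.10 and 0.07.

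The interferons themselves were near the limit of detection. Of 21 ligand genes in the table, 13 had 0 reads in every tumor and none passed the filter. Ifng had 0, 1, 10 and 0 reads in vehicle replicates 1 to 4 and 2, 5, 3, 8 and 0 in R-propranolol replicates 1 to 5. Ifnb1 had 6 reads in vehicle replicate 3, 1 and 2 in R-propranolol replicates 1 and 3, and 0 elsewhere. The most reads of both were thus in vehicle replicate 3, the tumor with the highest member median. R-propranolol replicate 4, with 8 Ifng reads, had a median member deviation of 0, and no test was run on counts this low. Ifne, a ligand of epithelia, had 58 reads in all, and Ifna2, Ifna4, Ifna11, Ifna13 and Ifnab had 1 to 5 each. All 21 ligands summed to 0 reads in R-propranolol replicate 5, where the GTPases were high; a count of 0 allows up to 3 reads for counting error.

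Of the other genes of the pathway, receptors and signal transducers were not called. Of 9 tested, 3 were above 0 and 6 below. An unadjusted p under 0.05 by edgeR's quasi-likelihood test was reached by 0, where 2.3% of all genes reached it. The same share stands beside the counts of the lists below. The most abundant per kilobase were Jak1, the kinase of both arms, with a log2 fold change of 0.05 (SE 0.09), and Ifngr2 with −0.02 (SE 0.11).

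Nucleic acid sensing genes were called 0 times among 16 (5 above 0, 11 below), with Tmem173 (STING) at −0.18 (SE 0.16) and Aim2, the inflammasome DNA sensor, at −0.32 (SE 0.47). Aim2 was at 9.91 CPM in R-propranolol replicate 5 and at 64.4 to 82.0 CPM in the other tumors. The 14 negative regulators were called 0 times (10 above 0, 4 below), with Socs3 at 0.19 (SE 0.22) and the phosphatase Ptpn11 at 0.05 (SE 0.09). Among 61 further interferon-induced genes, 26 were above 0 and 35 below, with a median of −0.05. At an unadjusted p under 0.05, where 2.3% of all genes were called, the test called 1 of the 61. That gene was Gbp10, with 456 reads in R-propranolol replicate 5 and 2 to 19 in each other tumor, a log2 fold change of 4.37 (SE 1.91) and an adjusted p of 0.876 by edgeR's quasi-likelihood test. Ifitm2 and Ifitm3, membrane proteins that bar virus entry, were the most abundant of this list per kilobase, at −0.03 (SE 0.15) and −0.06 (SE 0.20).

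Bulk tumor RNA mixes the grafted cells with host cells, and fewer cells of a type cannot be told apart from less RNA per cell. The 12 endothelial markers were all present, with summed levels of 357 to 479 CPM in the vehicle tumors and 382 to 904 CPM in the treated tumors. The 12 macrophage markers, all present, summed to 793 to 2167 CPM and 748 to 3852 CPM, and both groups' lowest tumors, vehicle replicate 4 and R-propranolol replicate 3, were the 2 with the lowest member medians. The rest of the macrophage order differed from that of the members. R-propranolol replicate 2 was at 3244 CPM with a median member deviation of 0.07, and vehicle replicate 1 (2167 CPM) lay above vehicle replicate 3 (1936 CPM). The 10 NK cell markers summed to 4.41 to 19.9 CPM and 2.87 to 14.4 CPM, with Klra8 at 0 throughout. Their sum was lowest in vehicle replicate 4 and R-propranolol replicate 3 and highest in vehicle replicate 3. Of the T cell markers Cd3e had 0 to 19 reads per tumor. The list's sum, 12.4 to 101 CPM, was highest in R-propranolol replicate 3 and lowest in R-propranolol replicate 5. It was mostly Cd28 except in R-propranolol replicate 5, where Cd28 was at 4.39 CPM. Cd3e, Cd3d and Cd3g went the other way in these tumors, with 0, 1 and 0 reads in R-propranolol replicate 3. They had 19, 14 and 24 reads in R-propranolol replicate 5, the highest CPM of each. Siglech, 1 of 8 listed markers of plasmacytoid dendritic cells, ran from 1.26 to 6.43 CPM. Others of the list went opposite ways in R-propranolol replicate 5, with Cox6a2 at its highest (639 CPM) and Runx2 at its lowest (11.1 CPM). That list also holds Bst2 and so is not independent of the members. Neutrophil markers summed to 56.4 CPM in R-propranolol replicate 5 and to 194 to 552 CPM elsewhere. Fibroblast markers summed to 31312 CPM in R-propranolol replicate 2, 16505 CPM in R-propranolol replicate 5 and 5229 to 8515 CPM elsewhere. Adipocyte markers summed to 4528 CPM in R-propranolol replicate 5 and to at most 359 CPM elsewhere. The part of these cell types in the members' levels was not tested.

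**Figure D5:**
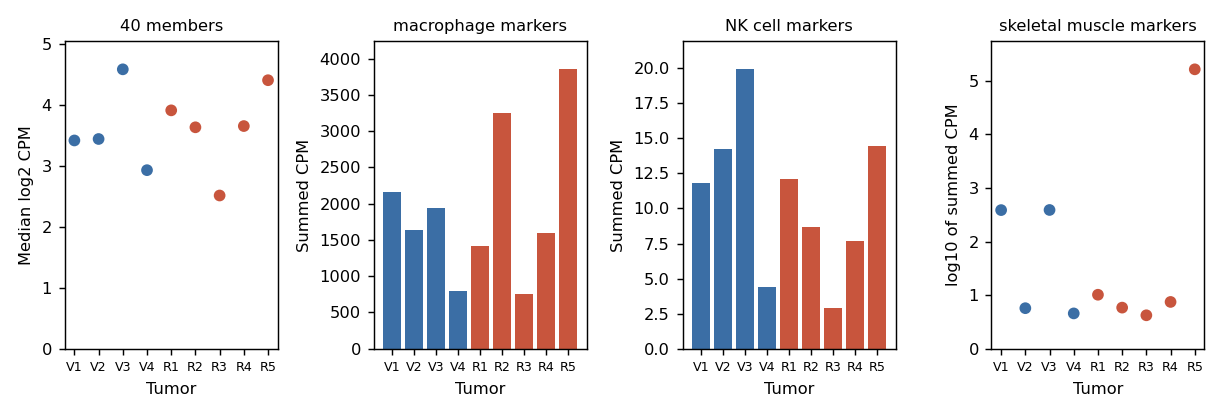
For each tumor (V vehicle, blue; R R-propranolol, red), the median log2 CPM of the 40 members (points), the summed CPM of macrophage markers and of NK cell markers (bars from 0), and the log10 of summed CPM of skeletal muscle markers (points). V4 and R3 are the lowest tumors in the first 3 panels, V3 is the highest for the members (4.58) and NK cells (19.9), and R5 is the highest for macrophage (3852) and muscle markers. R2 is the next highest for macrophage markers (3244), with a member median of 3.63.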

How the data were processed

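Per the labels and the study's methods, the authors made NEBNext Ultra libraries from frozen tumors, and sequenced both ends. STAR placed the reads on mm10 and HTSeq counted them per gene, with versions, annotation and strand setting not given in the sources used. The deposited values are raw counts. HTSeq's rows of unassigned reads (19.1% to 23.9%) were left out.

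All genes were fitted with edgeR 4.0.16 in R 4.3.3 (filterByExpr, minimum count 10 and total 15, TMM, quasi-likelihood test, Benjamini-Hochberg adjustment over 13901 genes). Log2 CPM used a prior count of 0.25. Single genes were also compared by exact two-sided permutation over all splits of the 9 tumors. DESeq2 1.42.0, voom of limma 3.58.1 with quality weights, other scaling, other filters, a replicate block and each tumor left out were the alternatives. The procedure was tested on simulated data.

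Members and gene lists were chosen with earlier results of these data known. In each role, the 3 members with the smallest p, the most abundant per kilobase and any with p under 0.05 were named, and in other lists those with p under 0.05 and the 2 most abundant. Exon lengths came from GENCODE M21 and promoters from RefSeq GRCm38.p6. One gene of the pathway lists is not reported here.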

Additional observations from a re-analysis of the deposited data

Results flagged for a closer look

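Within each group the highest and lowest tumor of every member was compared in log2 CPM with its neighbour by Dixon's test, which chance alone passes in about 1 of 20 groups. Of the 80 pairs of member and group, 4 passed, which is no more than that share. The pairs are not independent, since the members were read in the same tumors. Vehicle replicate 3 stood above the other vehicle tumors for 3 members, with 6.87 CPM of Mx2, a dynamin-like GTPase, 32.5 CPM of Trim30a, a tripartite-motif protein, and 15.9 CPM of Herc6. R-propranolol replicate 5 stood below the other treated tumors for Eif2ak2, at 35.8 CPM.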

How the results depend on the processing

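In the 17 alternatives run, 0 of the 40 members passed adjustment. The count at an unadjusted p under 0.05 and lower in R-propranolol, 1 as reported, was 0 with library size alone, with no filter, with limma-voom and quality weights, and with vehicle replicates 1 and 2 summed as 1 tumor. It ran from 0 to 2 when single tumors were left out: 0 without vehicle replicate 2 or 3 or R-propranolol replicate 2 or 4, and 2 (Bst2 and Irf1) without R-propranolol replicate 1. In that last fit 63 of all 13778 genes tested were called lower and 502 higher. Members with groups that did not overlap, all lower, ran from 0 to 1 when single tumors were left out, the 1 being Irf1 without R-propranolol replicate 1. The share of all genes without overlap was counted only for all 9 tumors. Over all genes the count at an unadjusted p under 0.05 ran from 26 to 336 lower and from 72 to 702 higher, against 40 and 280 as reported. The median log2 fold change of the members ran from −0.22 to 0.26. Same-numbered vehicle and treated tumors did not deviate together (correlations of −0.28, 0.09, −0.64 and 0.53 over all genes, none best with its own number), and with the replicate number as a block the count was 0 and 35 members were below 0. Members below 0, 26 as reported, ran from 6 without vehicle replicate 3 to 38 without R-propranolol replicate 5. Of 289 alternative values for the 17 named members, 279 kept their side of the threshold, of which 35, in 12 members, changed sign without being called. Of the others, 9 (all Bst2) lost an unadjusted p under 0.05, 1 (Irf1) gained it, and 0 reversed a called direction. The stricter response element, GAAAC then any base and GAAA, was in 12 of 30 member promoters and 0.792% of all genes. With 4 and 5 tumors only 15 members had intervals within 2-fold of no difference.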
